A study of Mus musculus with 14 samples.

Results

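Hox genes encode homeodomain transcription factors, and they were read here as a family in bone marrow osteoblasts and endothelial cells of the mouse. A gene was a member where the deposited array table held a probe set whose single symbol was Hoxa, Hoxb, Hoxc or Hoxd followed by a number, and where a gene had several probe sets the one with the highest mean over the 14 arrays stood for it. The rule found 33 members among 18193 genes: 9 of the A cluster, 9 of the B cluster, 7 of the C cluster and 8 of the D cluster. The rule used no difference between groups.

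Vertebrate Hox genes lie in 4 clusters, and the number in a gene's name is its paralogue group, which runs from 1 at the 3′ end of a cluster to 13 at its 5′ end. In the embryo, genes of low number are switched on early and towards the head, and genes of high number late, towards the tail and the tips of the limbs, so that the set of Hox genes a mesodermal cell expresses records where along the body it arose. Many adult mesenchymal and vascular cells keep such a set, and in blood-forming cells members such as Hoxa9 and Hoxb4 act in stem and progenitor cells.

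The series asked how marrow stromal cells respond to G-CSF, granulocyte colony-stimulating factor, a cytokine that moves blood stem cells into the circulation. Cells were taken from pOBcol2.3-GFP mice. Their transgene links part of the promoter of type I collagen to green fluorescent protein and marks the osteoblast lineage. All mice were C57BL/6J, wild type per the labels and 6 to 8 weeks old. Marrow stromal cells freed with collagenase were sorted as osteoblasts (CD45- ter119- CD31- GFP+, below the GFP+ sort) or as endothelial cells (CD45- ter119- GFP- CD31+, below the CD31+ sort), and both sorts came from mice carrying the transgene. There were 3 untreated and 3 G-CSF arrays of the GFP+ sort and 4 and 4 of the CD31+ sort. G-CSF was given under the skin at 250 ug/kg, for 5 days per the titles, and the protocol text attached to the untreated arrays names 7 days and a vehicle. The labels do not say whether replicates were separate animals or pools, so the p-values measure the spread between arrays.

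The endothelial markers separated the sorts, the osteoblast markers separated them little in untreated mice, and both sorts also read markers of other cells. All 12 endothelial markers were higher in the CD31+ sort in both conditions, and their mean log2 level was 12.46 to 12.95 on the CD31+ arrays and 8.45 to 9.50 on the GFP+ arrays. Col1a1, the main collagen gene of osteoblasts, read 33542 to 68385 on the untreated GFP+ arrays but also 32165 to 54712 on the untreated CD31+ arrays and 3475 to 31126 after G-CSF. Sp7, the osteoblast transcription factor osterix, likewise read 783 to 5144 on the untreated GFP+ arrays and 610 to 2578 on the untreated CD31+ arrays, and neither was called untreated (adjusted p = 0.814 for Col1a1 and 0.451 for Sp7). Of 7 osteoblast markers 1 was higher in the GFP+ sort untreated and 7 after G-CSF. Ptprc, which encodes the CD45 that both sorts were gated against, read 533 to 14375 over all arrays. All 12 neutrophil markers were above background on every array, and their mean ranged from 11.04 to 14.14. Replicate 2 of the untreated GFP+ sort (neutrophil list 14.14, against 11.14 and 11.04 in replicates 1 and 3, and osteoblast list 12.72, against 14.27 and 14.51) and replicate 1 of the untreated CD31+ sort (muscle list 13.46, against 7.76 to 9.32 in the others) stood apart. Over all arrays the means of 8 B-lineage, 6 erythroid and 8 pericyte markers ranged from 6.43 to 9.60, 6.38 to 10.05 and 10.20 to 12.29. In sorted bulk samples, fewer cells of a type and less RNA per cell cannot be told apart. The part of these markers in the results below was not tested. Results that changed without the arrays that stood apart are given both ways.

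The members above background on every array of at least 1 group belonged to paralogue groups 2 to 11. They were Hoxa2, Hoxa3, Hoxa5, Hoxa7, Hoxa9, Hoxa10 and Hoxa11, and Hoxb2 to Hoxb6. With them were the 6 C genes Hoxc4, Hoxc5, Hoxc6, Hoxc8, Hoxc9 and Hoxc10, and Hoxd8 with Hoxd9. No member of paralogue groups 1, 12 and 13 was above background on every array of a group. Nor were Hoxa4, Hoxb7, Hoxb9, Hoxd3, Hoxd10 and Hoxd11, which lie between those groups. A gene was taken as above background where its intensity, the brightness of its probe set on a linear scale, exceeded the 95th percentile of 80 odorant, vomeronasal and related receptor probe sets on the same array, a value of 53.0 to 100.1 across arrays. By that measure 16 of 33 members were above background on every untreated GFP+ array, 15 on every GFP+ array after G-CSF, and 14 on every CD31+ array in each condition. Of all 18193 genes, 61.1, 60.9, 58.7 and 59.9% were above background in the same groups.

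Hoxa3, Hoxa5, Hoxa9, Hoxa10, Hoxb2, Hoxb3, Hoxb4 and Hoxd8 were above background on every array of all 4 groups. Hoxa11, Hoxc5, Hoxc8 and Hoxc9 were so in both GFP+ groups and in neither CD31+ group, and Hoxb5, Hoxb6 and Hoxd9 in both CD31+ groups and in neither GFP+ group. At the other extreme, 10 members exceeded the background on no array of any group. They were Hoxb1, which patterns the hindbrain, Hoxb7, Hoxb13, Hoxc13, known from hair and nail, Hoxd1, Hoxd3, and Hoxd10, Hoxd11, Hoxd12 and Hoxd13, the genes that pattern the outer limb and digits. An array probe at background gives only an upper bound on its transcript.

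**Figure D1:**
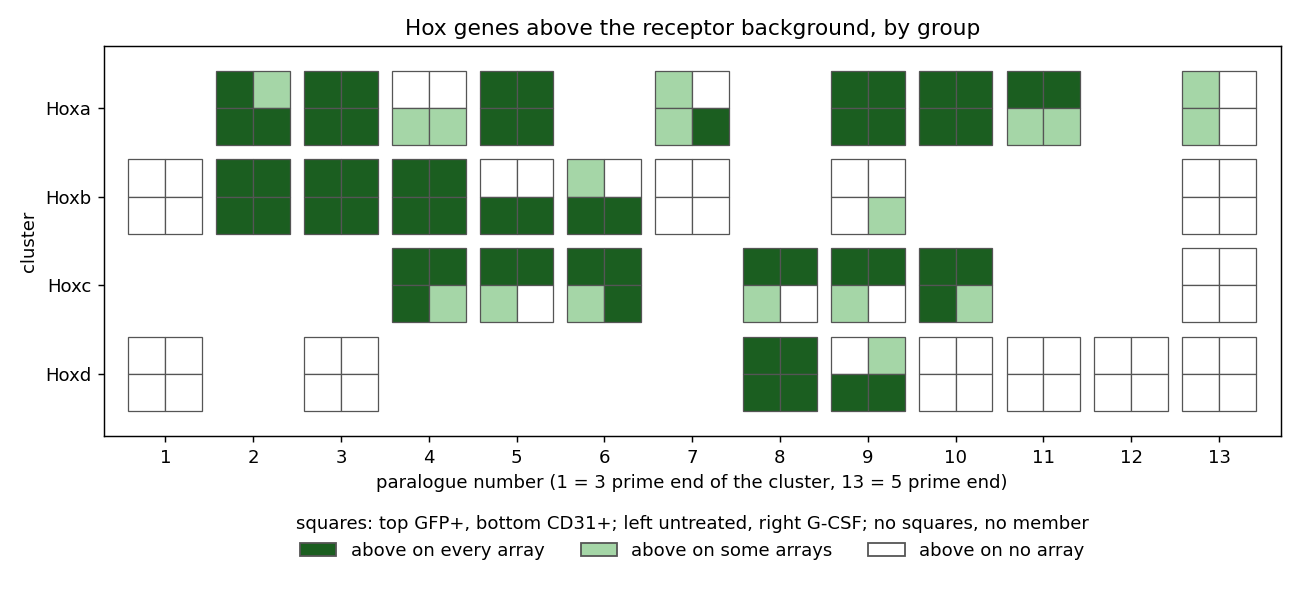
Map of the 33 Hox genes by cluster (rows) and paralogue number (columns), with 1 square per group, the GFP+ sort above and the CD31+ sort below, untreated at left and G-CSF at right, shaded by whether the intensity exceeded the receptor background on every, some or no arrays. The C cluster is dark in the upper squares from Hoxc4 to Hoxc10, Hoxb5, Hoxb6 and Hoxd9 are dark only in the lower squares, and Hoxd10 to Hoxd13 are empty throughout.

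The sorts differed by cluster. In untreated mice all 6 tested genes of the C cluster (Hoxc4, Hoxc5, Hoxc6, Hoxc8, Hoxc9 and Hoxc10) and Hoxa9 and Hoxa10 were higher in the GFP+ sort, and all 5 tested genes of the B cluster (Hoxb2 to Hoxb6) and both tested genes of the D cluster (Hoxd8 and Hoxd9) were higher in the CD31+ sort. That is 15 of 33 members called (limma, adjusted p under 0.05), 8 higher and 7 lower, with 20 of the 33 tested and 13 not. Of the 13450 genes tested, 26.4% were called (13.6% higher, 12.8% lower). The median difference of the tested members was 0.12 on the log2 scale, against 0.00 over all genes. After G-CSF 17 members were called, 9 higher and 8 lower, where 31.9% of genes were called (17.5% higher, 14.4% lower), with medians of 0.15 and 0.02. Centring each array on its median moved the median of all genes to −0.23 untreated and −0.37 after G-CSF, and the called members to 6 higher and 8 lower untreated and 8 higher and 10 lower after G-CSF. Quantile normalization gave 6 and 8, and 7 and 9. The 2 sorts did not overlap for 14 members untreated and 19 after G-CSF, where 32.6 and 39.5% of all genes tested did not. Without the 2 arrays that stood apart, 14 members were called untreated (8 higher, 6 lower) and 17 after G-CSF. Of the 8 members higher in the untreated GFP+ sort, 6 had their lowest untreated GFP+ value on replicate 2, the array with the most neutrophil signal. Of the 7 higher in the CD31+ sort, 3 had their lowest and 2 their highest untreated GFP+ value on that array. The share of all genes lowest on it was not counted, and the part of the neutrophil signal was not tested.

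A filter on dim probe sets left 20 members for these tests, the same 20 that were above background on every array of at least 1 group. A gene bright in 1 sort alone can pass such a filter through that sort, so the counts over the tested members are descriptions. With no filter, 16 of the 33 members were called in each condition, where 19.1% of 18193 genes were called untreated and 23.5% after G-CSF. The nearest members on either side of the filter, with mean log2 intensities over all arrays, were Hoxa7 (6.70) and Hoxc5 (6.94) inside and Hoxa13 (5.66) and Hoxb9 (5.65) outside a limit of 5.78.

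All 20 tested members had the same sign of difference untreated and after G-CSF, on separate arrays. The share of all genes with the same sign was not counted. The count rests on the probe set used for each gene. Another Hoxa3 probe set gave −0.48 and −1.55, against positive values, and another Hoxa5 probe set gave 0.14 and −0.21. Without untreated GFP+ replicate 2 the untreated estimates of Hoxa2 and Hoxa7, which were not called, turned to 0.12 and 0.26. Of the 20 tested members, 14 were called in the same direction in both conditions and 0 in opposite directions. Of the 14, 8 were higher in the GFP+ sort (Hoxa9, Hoxa10 and the 6 C genes) and 6 in the CD31+ sort (Hoxb3, Hoxb4, Hoxb5, Hoxb6, Hoxd8 and Hoxd9). Of all genes tested, 21.3% were called in the same direction in both. Hoxb2 was called untreated alone, and Hoxa2, Hoxa7 and Hoxa11 after G-CSF alone.

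**Figure D2:**
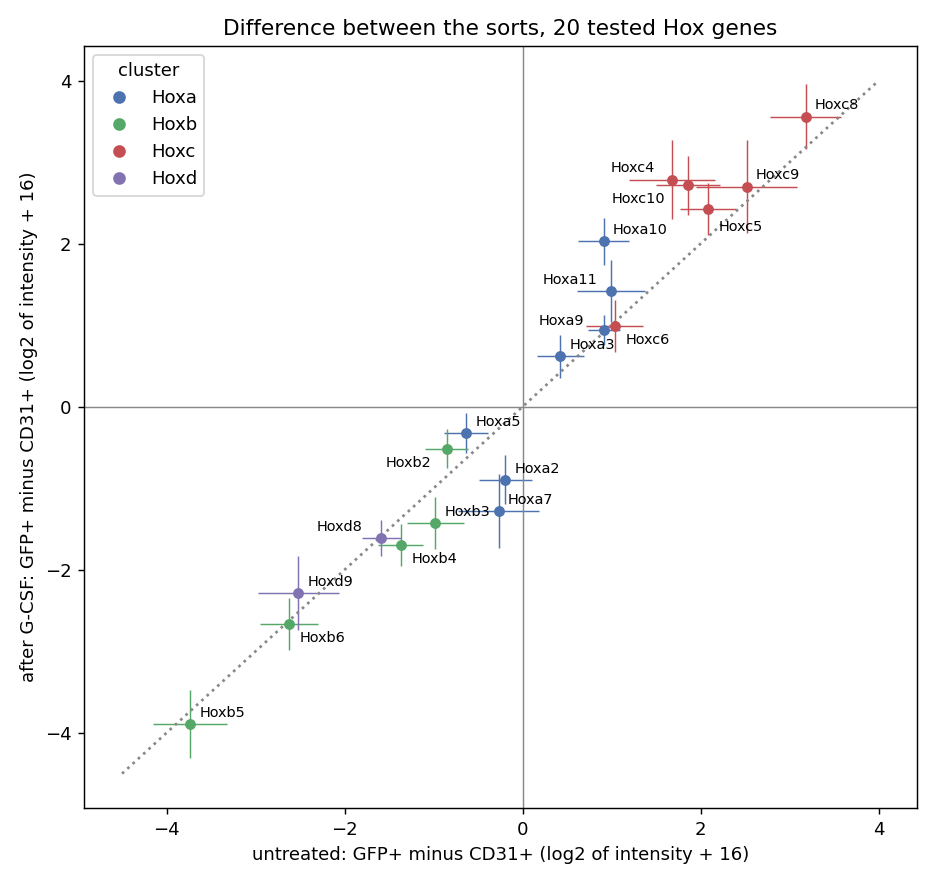
Difference between the sorts (GFP+ minus CD31+, log2 of intensity + 16) for the 20 tested Hox genes, untreated on the x axis and after G-CSF on the y axis, with standard errors as bars, colour for the cluster and a dotted line of equality. Every C gene lies in the upper right and every B and D gene in the lower left, from Hoxc8 at 3.18 and 3.56 to Hoxb5 at −3.73 and −3.89, while the A genes lie on both sides of 0.

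Paralogues descend from a single ancestral gene and encode closely related homeodomains, and in several groups they differed in opposite directions. In paralogue groups 4, 5 and 6 the B gene was higher in the CD31+ sort and the C gene in the GFP+ sort. In group 8 the split was between Hoxc8 and Hoxd8, and in group 9 between Hoxa9 and Hoxc9 on one side and Hoxd9 on the other. In group 10, by contrast, Hoxa10 and Hoxc10 were both higher in the GFP+ sort in both conditions. The 150 bases before the RefSeq start site (GRCm38.p6) are shown for a pair of group 4, a pair of group 9 and Hoxd8, to set side by side the promoters of paralogues that differed between the sorts. Capitals mark a match to one of 5 motifs searched on both strands of the 250 bases before the start: the TATA box (TATAAA), the CCAAT box (CCAAT), a combined Pbx and Hox site (TGATTNAT), a Meis site (TGACAG) and the GC box (GGGCGG).
Hoxb4 (chr11:96318117-96318266, plus strand): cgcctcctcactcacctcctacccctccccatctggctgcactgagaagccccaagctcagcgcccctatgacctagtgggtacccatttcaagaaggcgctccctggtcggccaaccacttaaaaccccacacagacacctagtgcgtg
Hoxc4 (chr15:103034245-103034394, plus strand): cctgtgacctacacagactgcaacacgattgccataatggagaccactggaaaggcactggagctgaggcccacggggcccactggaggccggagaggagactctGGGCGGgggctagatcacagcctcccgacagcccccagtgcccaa
Hoxa9 (chr6:52227371-52227520, minus strand): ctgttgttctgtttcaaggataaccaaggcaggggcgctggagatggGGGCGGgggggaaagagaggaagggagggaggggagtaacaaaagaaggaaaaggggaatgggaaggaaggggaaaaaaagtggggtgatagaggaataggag
Hoxd9 (chr2:74697613-74697762, plus strand): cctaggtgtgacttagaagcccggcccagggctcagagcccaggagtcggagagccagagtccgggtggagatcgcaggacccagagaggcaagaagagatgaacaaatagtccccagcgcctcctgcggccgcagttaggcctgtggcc
Hoxd8 (chr2:74704465-74704614, plus strand): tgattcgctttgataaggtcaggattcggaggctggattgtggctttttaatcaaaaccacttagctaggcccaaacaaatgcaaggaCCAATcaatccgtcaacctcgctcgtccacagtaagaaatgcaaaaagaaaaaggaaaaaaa

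The capitals in the Hoxc4 and Hoxa9 stretches are GC boxes, 45 and 103 bases before the start, and those in the Hoxd8 stretch are a CCAAT box 62 bases before it. Hoxd9 held a GC box 226 bases before its start, beyond the stretch shown, and Hoxb4 held none of the 5 motifs. Promoters were found for 19 of the 33 members, 21 promoters in all, and these were searched for the motifs. The GC box was in 8 of these 21 (32.7% of 32851 promoters), the CCAAT box in 11 (33.8%), the TATA box in 2 (12.4%), the Pbx and Hox site in 2 (2.82%) and the Meis site in 2 (15.9%). The member promoters had a median GC content of 59.2% and 13 CpG dinucleotides, against 52.4% and 6 over all promoters. These are matches of letters and not binding sites, and the start used for a gene may not be the one active in these cells.

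Below, intensities are listed in the order of the replicate numbers, differences are GFP+ minus CD31+ on the log2(intensity + 16) scale with their standard errors, and folds are on the same scale, which understates the change of dim genes. Where a gene exceeded the background on every array of one group and on none of the other, the difference is also given as "at least" a fold, the bright group's mean against the dim group's mean with each dim array raised to its background.

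Genes of the C cluster, which pattern the lower neck, the trunk and the hindlimb level, were higher in osteoblasts without exception among those tested. Hoxc4, the first gene of the cluster, read 777, 198 and 597 on the untreated GFP+ arrays and 616, 346 and 361 after G-CSF, against 142, 111, 156 and 121 on the untreated CD31+ arrays and 130.4, 23.5, 20.5 and 63.9 after G-CSF. The sorts did not overlap in either condition, with differences of 1.68 ± 0.48 untreated (3.20-fold, adjusted p = 0.0186) and 2.79 ± 0.48 after G-CSF (6.90-fold, adjusted p = 0.000448). Replicate 2 was the lowest untreated GFP+ array, and without replicate 1 the untreated difference was 1.30 (adjusted p = 0.106) and without replicate 3 it was 1.48 (adjusted p = 0.0793).

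Hoxc5 read 342, 394 and 437 on the untreated GFP+ arrays and 113, 323 and 232 after G-CSF, against 99, 58.6, 69 and 98.2 untreated and 18.8, 22, 38.7 and 24 after G-CSF on the CD31+ arrays. The lowest GFP+ array lay above the highest CD31+ array of its condition, by 2.08 ± 0.32 on average untreated (adjusted p = 0.000197) and by 2.42 ± 0.32, at least 2.87-fold, after G-CSF (adjusted p = 3.56e-05). Hoxc6, a gene of the upper thorax and forelimb level, read 198, 197 and 235 untreated and 126, 238 and 285 after G-CSF in the GFP+ sort, against 110.4, 95.9, 135 and 51.5 untreated and 89.9, 67.4, 123 and 109 after G-CSF in the CD31+ sort. Its differences, 1.04 ± 0.32 (adjusted p = 0.0260) and 0.99 ± 0.32 (adjusted p = 0.0275), were the smallest of the C cluster, and both calls were lost with quantile normalization (adjusted p = 0.0712 and 0.149). The untreated call was also lost without GFP+ replicate 1 or 3 or CD31+ replicate 4 (adjusted p = 0.0599 to 0.0880), and the other without GFP+ replicate 2 or 3 or CD31+ replicate 1 or 2 (adjusted p = 0.0561 to 0.129). The probe set used for Hoxc6 is of a type that can bind related transcripts, and its other 2 probe sets gave 0.95 and 0.29 untreated and 1.36 and 0.54 after G-CSF.

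Hoxc8, a gene of the thoracic region that is also expressed in osteoblast precursors, was higher in the GFP+ sort. It read 997, 296 and 1011 untreated and 614, 569.7 and 762 after G-CSF there, against 82.7, 37, 83.6 and 47.2 untreated and 60.4, 35.8, 22.7 and 48.1 after G-CSF in the CD31+ sort. The GFP+ arrays were all above the CD31+ arrays, by 3.18 ± 0.40 untreated (9.07-fold, adjusted p = 3.35e-05) and 3.56 ± 0.40 after G-CSF (at least 8.55-fold, adjusted p = 8.12e-06). Untreated replicate 2 of the GFP+ sort, the array with the highest neutrophil markers, was the low one at 296.

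Hoxc9, which acts at the thoracic level, read 574, 445 and 436 untreated and 120.0, 381 and 575 after G-CSF in the GFP+ sort, against 70.3, 21.4, 189 and 70.3 untreated and 62.3, 59.6, 13.6 and 16.4 after G-CSF in the CD31+ sort. The sorts did not overlap within a condition, although untreated CD31+ replicate 3 (189) was higher than GFP+ replicate 1 after G-CSF (120). Its differences were 2.52 ± 0.57 (adjusted p = 0.00403) and 2.70 ± 0.57, at least 4.11-fold (adjusted p = 0.00194). Hoxc10, a gene of the lumbar and hindlimb level, read 1044, 601 and 803 untreated and 551, 699 and 629.9 after G-CSF in the GFP+ sort, against 329, 97.6, 231 and 246 untreated and 113, 99.4, 41.1 and 89.8 after G-CSF in the CD31+ sort. All GFP+ arrays lay above all CD31+ arrays, with differences of 1.86 ± 0.36 (adjusted p = 0.00134) and 2.72 ± 0.36 (adjusted p = 3.87e-05). Hoxc13 stayed between 2.3 and 12.5 on all arrays, below background.

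**Figure D3:**
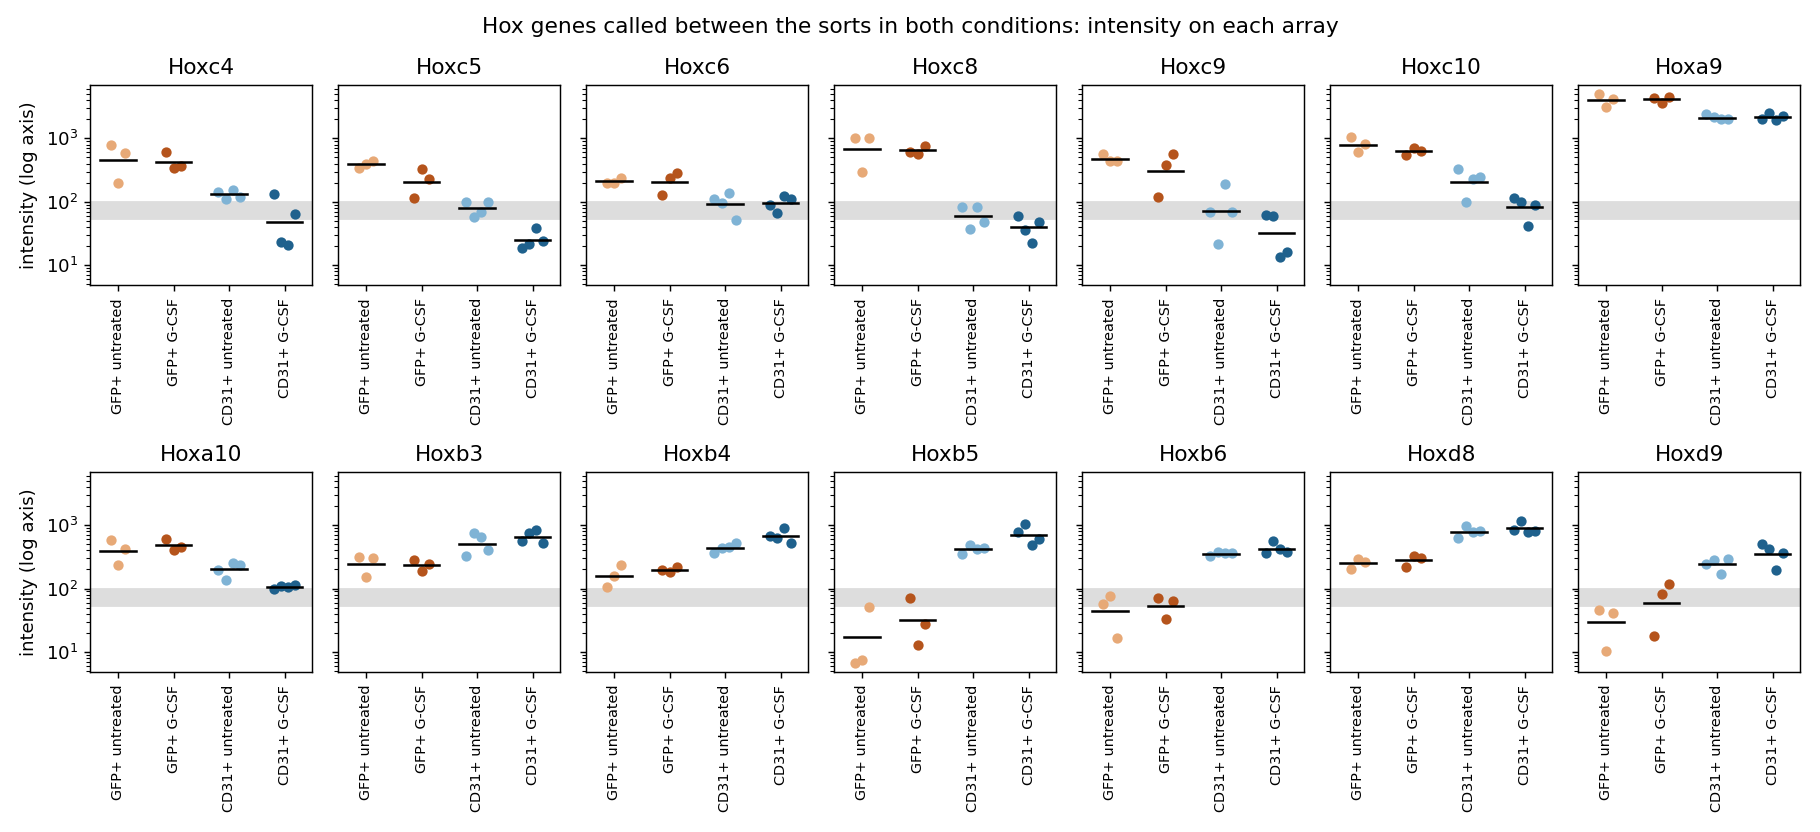
Intensity on each array (log axis) of the 14 Hox genes called between the sorts in both conditions, by group, with a bar at each group's mean of log2 values and a grey band over the range of the array backgrounds (53.0 to 100.1). Within each condition, points of the GFP+ sort lie above those of the CD31+ sort in the panels from Hoxc4 to Hoxa10, apart from an overlap of the untreated groups in Hoxa10, and below them in the panels from Hoxb3 to Hoxd9.

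Genes of the B cluster ran the other way. Hoxb5, which marks long-term blood stem cells in mouse marrow and acts in vascular and enteric development, was higher in the CD31+ sort. It read 356, 487, 427 and 429.9 on the untreated CD31+ arrays and 765, 1043, 493 and 611 after G-CSF, against 6.70, 7.49 and 50.9 untreated and 72.1, 13.1 and 27.7 after G-CSF on the GFP+ arrays, where no array exceeded the background. The differences were −3.73 ± 0.42 (at least 5.00-fold higher in CD31+ cells, adjusted p = 1.15e-05) and −3.89 ± 0.42 (at least 7.59-fold, adjusted p = 5.24e-06). The mean of 9 blood progenitor markers was 9.05 to 10.02 on the CD31+ arrays and 8.18 to 9.44 on the GFP+ arrays. Of the 9, 3 were lower in the GFP+ sort untreated and 5 after G-CSF, where 12.8 and 14.4% of all genes were. In each condition 1 of them, Meis1, was higher in the GFP+ sort. The part of these markers in the Hoxb5 result was not tested.

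Hoxb6, its neighbour in the cluster, read 321, 372, 368 and 360.4 on the untreated CD31+ arrays and 366, 565, 419 and 382 after G-CSF, against 56.9, 75.5 and 16.5 untreated and 70.1, 33.6 and 63.3 after G-CSF on the GFP+ arrays. Every CD31+ array was above every GFP+ array, with differences of −2.63 ± 0.32 (6.17-fold, adjusted p = 2.83e-05) and −2.67 ± 0.32 (at least 4.69-fold, adjusted p = 1.68e-05). Hoxb4, which enlarges the blood stem cell pool when overexpressed, was above background in both sorts. Its values were 358, 428, 455 and 514 on the untreated CD31+ arrays and 682, 624, 909 and 523 after G-CSF, against 108, 157 and 235 untreated and 195, 179 and 215 after G-CSF on the GFP+ arrays. The sorts did not overlap, with differences of −1.37 ± 0.25 (adjusted p = 0.000942) and −1.70 ± 0.25 (adjusted p = 0.000117).

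Hoxb3, a hindbrain and neck gene also expressed in endothelium, read 322, 746, 650.2 and 408 untreated and 565, 749, 831 and 529 after G-CSF in the CD31+ sort, against 317, 154 and 308 untreated and 279, 189.5 and 243 after G-CSF in the GFP+ sort. Untreated, the lowest CD31+ array (322) was barely above the highest GFP+ array (317), and the difference of −0.98 ± 0.31 (adjusted p = 0.0319) was lost without GFP+ replicate 2 (−0.66, adjusted p = 0.117), CD31+ replicate 2 (−0.79, adjusted p = 0.0961) or CD31+ replicate 3 (−0.86, adjusted p = 0.0855). After G-CSF the difference was −1.43 ± 0.31 (adjusted p = 0.00280). Hoxb2 read 499.6, 508, 531 and 529 untreated and 417, 447, 478 and 379.7 after G-CSF in the CD31+ sort, against 302, 180.1 and 394 untreated and 369, 313 and 224 after G-CSF in the GFP+ sort, with no overlap within a condition. It was called untreated (−0.85 ± 0.24, adjusted p = 0.0165) and not after G-CSF (−0.51 ± 0.24, adjusted p = 0.123), where it was called with quantile normalization (−0.75, adjusted p = 0.0316) and with centring (−0.90, adjusted p = 0.00919). Without GFP+ replicate 2 the untreated difference was −0.56 (adjusted p = 0.0632), and without both arrays that stood apart it was −0.58 (adjusted p = 0.0896).

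The remaining B genes were dim. Hoxb9 exceeded the background on 1 array, a CD31+ array after G-CSF. It read 63.0 to 82.2 on the untreated CD31+ arrays and 5.50 to 47.4 on the untreated GFP+ arrays. In the fit without a filter that difference was −1.31 ± 0.42 (adjusted p = 0.0409), although no untreated array exceeded the background. Hoxb1, Hoxb7 and Hoxb13 had no call in that fit in either condition.

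In the D cluster, Hoxd8 and Hoxd9, genes of the trunk and of the early limb, were higher in the CD31+ sort. Hoxd8 read 632, 966, 789.5 and 812 on the untreated CD31+ arrays and 835, 1158, 788 and 822 after G-CSF, against 206, 297 and 263 untreated and 216, 330.1 and 308 after G-CSF on the GFP+ arrays. The lowest CD31+ array was above the highest GFP+ array in both conditions, with differences of −1.59 ± 0.22 (3.00-fold, adjusted p = 8.72e-05) and −1.61 ± 0.22 (3.06-fold, adjusted p = 5.34e-05). Its other probe set gave −1.94 and −1.30. Hoxd9 read 248, 284, 169 and 294 untreated and 504, 427, 199 and 364 after G-CSF in the CD31+ sort, against 45.1, 10.3 and 41.8 untreated and 17.8, 80.6 and 118 after G-CSF in the GFP+ sort. Only 1 GFP+ array exceeded the background for Hoxd9, replicate 3 after G-CSF (118), and the sorts did not overlap. The differences were −2.52 ± 0.45, at least 2.96-fold higher in CD31+ cells (adjusted p = 0.000775), and −2.29 ± 0.45 (adjusted p = 0.00128). Hoxd1, Hoxd3 and Hoxd10 to Hoxd13 ranged from 1.0 to 76.7 over all arrays.

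Hoxa9, which with its cofactor Meis1 sustains blood progenitors, and Hoxa10 were higher in the GFP+ sort in both conditions and Hoxa11 after G-CSF, while Hoxa2 and Hoxa7 were higher in the CD31+ sort after G-CSF alone, with calls that were lost under 5 and 9 alternatives. Hoxa9 read 4997, 3093 and 4177 untreated and 4282, 3647 and 4511 after G-CSF in the GFP+ sort, against 2382, 2133, 1985 and 2022 untreated and 1985, 2494, 1924 and 2225 after G-CSF in the CD31+ sort. The sorts did not overlap, with differences of 0.91 ± 0.18 untreated (1.88-fold, adjusted p = 0.00175) and 0.94 ± 0.18 after G-CSF (1.92-fold, adjusted p = 0.00106). A second Hoxa9 probe set gave 0.78 and 0.79.

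Hoxa10 and Hoxa11 pattern the lumbar and sacral spine and the limb. Hoxa10 read 590.1, 239 and 425 untreated and 609, 411 and 456 after G-CSF in the GFP+ sort, against 196, 138, 257 and 234 untreated and 97.3, 109.8, 106 and 115 after G-CSF in the CD31+ sort. Untreated, GFP+ replicate 2 (239) lay below the highest CD31+ array (257), and the difference was 0.91 ± 0.29 (adjusted p = 0.0285). That call was lost under 7 alternatives, among them leaving out either of GFP+ replicates 1 and 3 or CD31+ replicates 1 and 2 (adjusted p = 0.0555 to 0.160). After G-CSF the sorts did not overlap and the difference was 2.03 ± 0.29 (4.08-fold, adjusted p = 7.11e-05). Hoxa11 read 267, 165 and 294 untreated and 232, 175 and 219.5 after G-CSF in the GFP+ sort, against 100.3, 118, 74.7 and 166 untreated and 119, 28.6, 44.9 and 117 after G-CSF in the CD31+ sort. Its untreated groups overlapped by less than 1 unit of intensity (GFP+ replicate 2 at 165, CD31+ replicate 4 at 166), with a difference of 0.99 ± 0.39 (adjusted p = 0.0725), and after G-CSF it was called (1.42 ± 0.39, adjusted p = 0.0108). Without GFP+ replicate 2 the untreated difference was 1.23 (adjusted p = 0.0368).

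Hoxa2, which patterns the hindbrain and the second pharyngeal arch, read 147, 68.7 and 147 untreated and 96.7, 63.8 and 104 after G-CSF in the GFP+ sort, against 122, 196, 118 and 114 untreated and 179.6, 239, 144 and 152 after G-CSF in the CD31+ sort. The untreated groups overlapped (−0.19 ± 0.30, adjusted p = 0.690), and after G-CSF the groups were apart (−0.90 ± 0.30, adjusted p = 0.0330). That call was lost without GFP+ replicate 2 (adjusted p = 0.133) and without CD31+ replicate 2 (adjusted p = 0.0989), and also without replicate 1 of either sort. Hoxa7, a thoracic gene, read 101, 27.3 and 128 untreated and 39.6, 81.6 and 35.5 after G-CSF in the GFP+ sort, against 32.6, 118, 113 and 149 untreated and 159, 161, 131 and 122 after G-CSF in the CD31+ sort. It overlapped untreated (−0.27 ± 0.45, adjusted p = 0.717) and was called after G-CSF (−1.28 ± 0.45, at least 1.68-fold higher in CD31+ cells, adjusted p = 0.0424), a call lost without any single CD31+ array or without GFP+ replicate 1 or 3 (adjusted p = 0.0597 to 0.140).

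Hoxa3 and Hoxa5 were above background in every group and called in neither condition. Hoxa3, needed for the thymus and parathyroid glands, read 364, 184 and 333 untreated and 311, 253 and 224 after G-CSF in the GFP+ sort, against 180.4, 250.2, 235 and 169 untreated and 124, 204, 193 and 148 after G-CSF in the CD31+ sort, with differences of 0.43 ± 0.27 (adjusted p = 0.268) and 0.62 ± 0.27 (adjusted p = 0.0924). Its probe sets disagreed: another that also stood above background in 3 groups, of a type that can bind related transcripts, gave −0.48 and −1.55. A further probe set, above background on every untreated GFP+ array and on no CD31+ array, gave 1.00 and 0.46. The last one was above background on no array. No direction is therefore given for Hoxa3. Without untreated GFP+ replicate 2 the untreated difference was 0.71 (adjusted p = 0.0448). Hoxa5, which acts in the lung and the lower neck, read 458, 371 and 554 untreated and 442, 507 and 669 after G-CSF in the GFP+ sort, against 884, 442, 866 and 772 untreated and 632, 790.0, 616 and 653 after G-CSF in the CD31+ sort. The groups overlapped, the differences were −0.63 ± 0.25 (adjusted p = 0.0744) and −0.32 ± 0.25 (adjusted p = 0.358), and a second probe set gave 0.14 and −0.21. Without untreated CD31+ replicate 2, the low one of its group, the untreated difference was −0.86 (adjusted p = 0.0110), and it was also called with quantile normalization (adjusted p = 0.0371) and with centring (adjusted p = 0.0177). Hoxa4 exceeded the background on 1 CD31+ array in each condition and on no GFP+ array. In the fit without a filter it was lower in the GFP+ sort after G-CSF (−1.53 ± 0.44, adjusted p = 0.0177). Hoxa13, a gene of the hand and foot, exceeded the background on 1 untreated array of each sort and on none after G-CSF.

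In the main fit, which took no replicate block, G-CSF changed no Hox gene past the threshold in either sort. With the block Hoxc5 was called in the CD31+ sort, as given below. In the GFP+ sort 0 of the 20 tested members were called, and 0 of all 33 with no filter, where 31 of 13450 genes (0.230%) were called by limma, and 1 member had an unadjusted p under 0.05, a mark that 8.86% of all genes passed. That member was Hoxc5, which read 342, 394 and 437 untreated and 113, 323 and 232 after G-CSF, with every treated array below every untreated array. It was the 1 member without overlap, where 9.29% of genes had none. The estimate was −0.87 ± 0.34 with an adjusted p of 0.431. The other tested members lay between −0.65 (Hoxc9) and 0.75 (Hoxd9), none of them with an unadjusted p under 0.05, and the median of the 20 tested was −0.04, the same as over all genes. With the replicate number as a block the count over all genes was 64, with 0 Hox genes. Without the 2 arrays that stood apart it was 427, again with 0 Hox genes.

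In the CD31+ sort likewise 0 of 20 were called, and 0 of 33 with no filter, where 215 of 13450 genes (1.60%) were called, and 5 members had an unadjusted p under 0.05, a mark that 13.1% of all genes passed. They were Hoxc5, Hoxc10, Hoxa10, Hoxc4 and Hoxb4. Hoxc5 read 99, 58.6, 69 and 98.2 untreated and 18.8, 22, 38.7 and 24 after G-CSF, above background on 2 arrays before and on 0 after. The groups did not overlap, and the estimate was −1.21 ± 0.29 (adjusted p = 0.0528). With the replicate number as a block Hoxc5 was called (adjusted p = 0.0368), and 660 genes were called in all. It was also called without untreated CD31+ replicate 2 (−1.33, adjusted p = 0.0385). On the mean of the 3 Hoxc5 probe sets the estimate was −0.29 (adjusted p = 0.688), and the other 2 probe sets were above background on no CD31+ array.

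For Hoxc10 the values were 329, 97.6, 231 and 246 untreated and 113, 99.4, 41.1 and 89.8 after G-CSF, an estimate of −1.20 ± 0.33 (adjusted p = 0.0854), with untreated replicate 2 (97.6) inside the treated range. Without that array the estimate was −1.53 (adjusted p = 0.0158). For Hoxa10 they were 196, 138, 257 and 234 and then 97.3, 109.8, 106 and 115, without overlap (−0.82 ± 0.26, adjusted p = 0.141). On the mean of its probe sets the Hoxa10 estimate was −0.21 (adjusted p = 0.892), and the other Hoxa10 probe set was above background on no CD31+ array. Hoxc4 read 142, 111, 156 and 121 before and 130.4, 23.5, 20.5 and 63.9 after, where treated replicate 1 alone stayed in the untreated range (−1.20 ± 0.45, adjusted p = 0.228). Hoxb4 had an estimate in the other direction, 0.61 ± 0.23 (adjusted p = 0.244), with every treated array above every untreated array, and Hoxb5 likewise (0.71 ± 0.38, adjusted p = 0.486). In all, 5 members did not overlap between untreated and treated CD31+ arrays, where 10.3% of genes did not.

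The mean log2 level of 7 osteoblast markers was 11.59 to 13.26 on the untreated CD31+ arrays and 9.24 to 12.26 after G-CSF, and that of 8 fibroblast and tendon markers 9.11 to 9.88 and 7.00 to 9.31. On the GFP+ arrays the fibroblast list read 11.94 to 12.74 over both conditions. The mean of the 12 endothelial markers was 12.47 to 12.95 on the untreated CD31+ arrays and 12.46 to 12.87 after G-CSF. On the CD31+ arrays the 6 erythroid markers read 8.37 to 9.15 untreated and 6.38 to 8.51 after G-CSF, the 8 B-lineage markers 7.77 to 9.60 and 6.43 to 8.02, and the 10 muscle markers 7.76 to 13.46 and 6.94 to 8.37. The part of these markers in the Hox estimates was not tested.

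The G-CSF effect was not shown to differ between the sorts for any Hox gene. For the difference of the effects 0 of 20 members and 0 of 13450 genes were called (0.00%), and 1 member, Hoxa10, had an unadjusted p under 0.05, as 4.62% of genes did. Its estimate was 1.12 ± 0.40 (adjusted p = 0.907). For Hoxa2, Hoxa7 and Hoxa11, called between the sorts after G-CSF alone, the estimates were −0.70 ± 0.42, −1.01 ± 0.64 and 0.43 ± 0.55, and for Hoxb2, called untreated alone, 0.34 ± 0.34, each with an adjusted p of 0.9999.

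**Figure D4:**
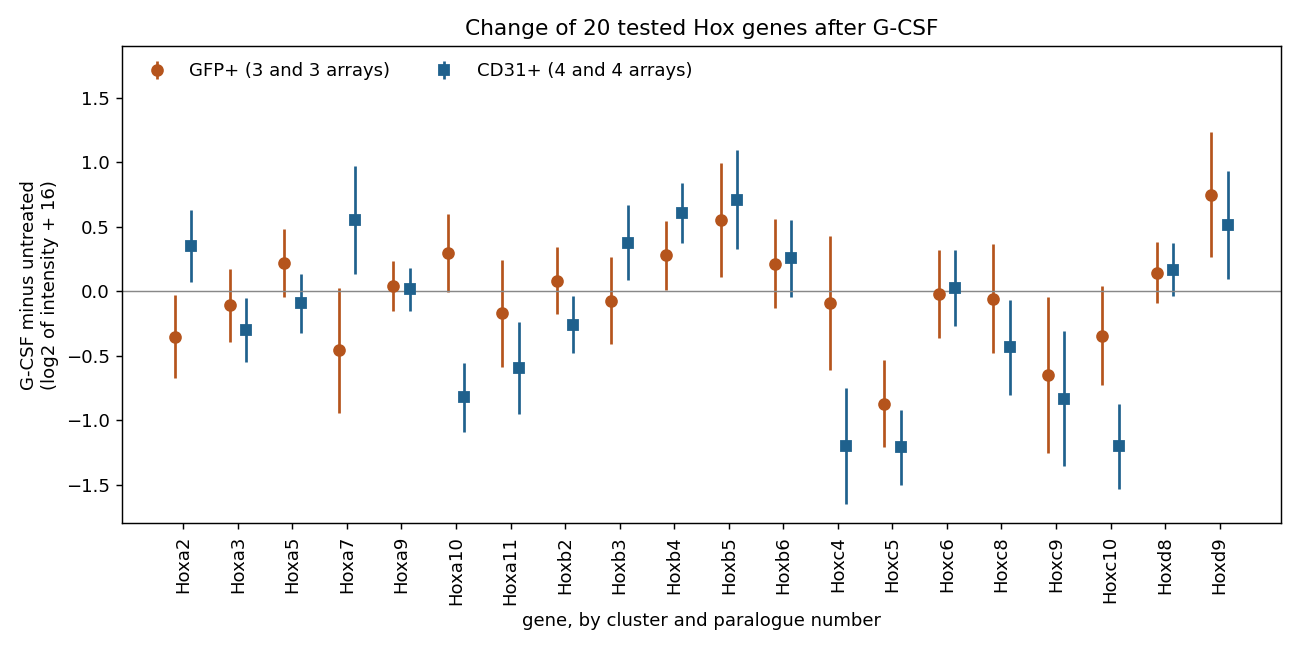
Change after G-CSF (G-CSF minus untreated, log2 of intensity + 16, bars are standard errors) of the 20 tested Hox genes in the GFP+ sort (circles) and the CD31+ sort (squares). No estimate passed the threshold in the main fit, and the lowest squares are Hoxc5 (−1.21), Hoxc10 (−1.20) and Hoxc4 (−1.20).

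Hox proteins bind DNA together with homeodomain cofactors of the TALE class, the Pbx, Meis and Prep (Pknox) proteins. Of 7 tested cofactor genes, 4 were higher in the GFP+ sort in both conditions and 0 lower: Meis2 (2.05 ± 0.26 untreated and 2.80 ± 0.26 after G-CSF, adjusted p = 3.43e-05 and 1.29e-06), Meis1 (1.84 and 2.59), Meis3 (1.14 and 1.71) and Pknox2 (0.97 and 1.42). The median of the 7 was 0.97 and 1.42. Among all genes tested, 13.6% were higher in the GFP+ sort untreated and 17.5% after G-CSF. Meis2 read 483 to 724 on the untreated GFP+ arrays and 108 to 189 on the untreated CD31+ arrays, where it fell after G-CSF to 42.1 to 67.6 (−1.07 ± 0.24, adjusted p = 0.0399). It was the one cofactor gene called after G-CSF in that sort, and 0 were called in the GFP+ sort.

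Trithorax-group proteins keep active Hox genes on, and Polycomb proteins keep silent ones off. In both lists the share of genes called between the sorts was below that of all genes (26.4% untreated and 31.9% after G-CSF). Of 11 tested genes on the Trithorax side, 2 were higher in the GFP+ sort untreated, Psip1, which encodes the MLL partner LEDGF (1.65), and Kmt2a, the MLL gene (0.95), and 0 lower. After G-CSF Psip1 was higher (1.60) and Rbbp5 lower (−0.87). Of 21 Polycomb genes, 1 was higher untreated, Suz12 (0.75), and 2 lower, Cbx7 (−0.91) and Ezh1 (−0.63), and after G-CSF 3 were higher and 3 lower. The list medians were 0.19 and −0.13 for the Trithorax side and 0.05 and 0.03 for Polycomb, and 0 genes of either list were called after G-CSF within a sort.

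Cdx proteins and retinoic acid set Hox expression in the embryo. Cdx1, Cdx2 and Cdx4 exceeded the background on no array. Of 10 tested genes of this list, Aldh1a3, which makes retinoic acid, was higher in the GFP+ sort (2.48 ± 0.50 and 3.87 ± 0.50, adjusted p = 0.00199 and 3.45e-05) and Cyp26b1, which degrades it, lower (−2.36 ± 0.36 and −1.58 ± 0.36, adjusted p = 0.000209 and 0.00378). After G-CSF Aldh1a2 (2.53) and Cyp26a1 (1.94) were also higher, so that 3 of the 10 were higher and 1 lower. Among all genes tested, 17.5% were higher and 14.4% lower after G-CSF. The list medians were 0.11 untreated and 0.01 after G-CSF.

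Of 21 other transcription factors of limb and trunk mesoderm on the array, 14 passed the filter. Of these 14, 8 were higher in the GFP+ sort untreated with 1 lower (Alx4, −0.95), and 11 after G-CSF with 0 lower. Alx4 exceeded the background on no untreated array of either sort. Among all genes tested, 13.6% were higher untreated and 17.5% after G-CSF. The list medians were 1.48 and 2.73. Prrx2 and Tbx4 exceeded the background on every GFP+ array and on no CD31+ array. They could therefore pass the filter through the GFP+ sort, and the counts are descriptions. Prrx1, a factor of limb mesenchyme, had the largest untreated difference (3.04 ± 0.48, and 4.64 ± 0.48 after G-CSF), followed by Prrx2 (2.86), Shox2, a gene of the upper limb segments (2.34), and Tbx4, which specifies the hindlimb (2.32). Tbx4 read 162 to 297 on the untreated GFP+ arrays and exceeded the background on no CD31+ array, while Tbx5, its forelimb counterpart, exceeded it on no array of either sort. Pitx1, a further hindlimb gene, was higher in the GFP+ sort in both conditions (1.47 and 2.58). After G-CSF, Shox2 (−2.27, adjusted p = 0.0191) and Irx3 (−1.16, adjusted p = 0.0296) fell in the CD31+ sort, and 0 of this list changed in the GFP+ sort. The head skeleton forms largely without Hox expression. Of 11 of its factors on the array, 4 passed the filter. Of these 4, 3 were higher in the GFP+ sort in both conditions, Dlx6 (2.84 and 2.62), Dlx5 (2.48 and 4.00) and Six2 (1.35 and 1.59). Dlx6 and Six2 were above background on every GFP+ array and on every array of neither CD31+ group. They could therefore pass the filter through the GFP+ sort, and the count is a description.

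Of 13 tested genes near the clusters, 3 were called between the sorts untreated and 2 after G-CSF, where 26.4 and 31.9% of all genes were called. Directly beside the clusters, Skap2 and Evx1 flank the A cluster, Ttll6 and Skap1 the B cluster, Calcoco1 and Smug1 the C cluster, and Evx2 and Mtx2 the D cluster. Of the 7 tested, Mtx2 alone was called between the sorts, and untreated alone (−0.72 ± 0.24, adjusted p = 0.0391, and −0.13 ± 0.24 after G-CSF, adjusted p = 0.727). Calcoco1 and Smug1, on either side of the C cluster, differed by −0.06 ± 0.29 and −0.31 ± 0.22 untreated. Among the 13, 2 were higher in the GFP+ sort in both conditions, Tax1bp1 (1.16 and 0.99) and Lnpk (1.07 and 0.98). Of the non-coding RNAs transcribed within the clusters, Hoxd3os1 was lower in the GFP+ sort (−2.11 ± 0.39 and −1.72 ± 0.39, adjusted p = 0.00105 and 0.00369), at 80.5 to 117 on the untreated GFP+ arrays and 375 to 689 on the untreated CD31+ arrays. Hoxb5os was lower untreated (−1.01 ± 0.34, adjusted p = 0.0411), and Hoxa11os exceeded the background on no array. Hoxd3 itself exceeded the background on no array.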

How the data were processed

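Total RNA (100 ng per sample) was read on 14 Affymetrix arrays as described in the labels' protocols. The deposited values are intensities on a linear scale from Affymetrix Expression Console 1.1, per the submitters' processing notes; the algorithm is not given in the sources used here. Each array's mean trimmed by 2% at each end was 500.003 to 500.004. Of 45101 probe sets, 34945 carried 1 gene symbol (18193 genes), 932 several, 9160 none and 64 were controls. Only probe sets with 1 symbol were used, the highest mean standing for a gene, and 3 probe sets with 2 Hox symbols were left out. Of the members, 11 had several probe sets.

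Intensities were used as log2(intensity + 16). Genes with a mean below 5.78, the 0.333 quantile over all probe sets, were dropped, which left 13450. In limma 3.58.1 (R 4.3.3), 1 model with 4 group means took all arrays together, with eBayes and a trend, and 2-sided p-values were adjusted by Benjamini-Hochberg over those genes, with calls at 0.05. The script was tested on simulated data. The alternatives were other pseudocounts, scalings, filters, probe set rules, a replicate block and leaving out arrays. Within a sort, same-numbered untreated and G-CSF arrays deviated together (r = 0.22 to 0.32 in the GFP+ sort, 0.10 to 0.38 in the CD31+ sort). Arrays of unlike number gave −0.28 to 0.01 in the GFP+ sort and −0.28 to 0.18 in the CD31+ sort. The labels state no pairing, so the main fit used no block, and the block on these numbers was an alternative. The number of arrays limits the precision.

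Every Hox member was named. For each of 17 gene lists, up to 4 called members per contrast between the sorts were named by size, and within-sort contrasts with no call are given as counts. Members and lists were chosen with earlier results of these data known.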

Additional observations from a re-analysis of the deposited data

Results flagged for a closer look

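Each member above background on every array of a CD31+ group was looked at for a single array far from the other 3, in 28 groups of values. Chance alone marks about 1 in 20 such groups. Hoxa2 read 196 on untreated CD31+ replicate 2 and 114 to 122 on the other 3 arrays, and the gap was 0.868 of the group's range. Hoxd8 read 1158 on CD31+ replicate 2 after G-CSF and 788 to 835 on the other 3, a gap of 0.848 of the range.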

How the results depend on the processing

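No called Hox difference changed sign under any alternative run. Among uncalled differences between the sorts, Hoxa2 untreated was 0.082 without the 2 arrays that stood apart and −0.35 to 0.12 without 1 array, Hoxa7 untreated −0.66 to 0.26 without 1 array (both above 0 without GFP+ replicate 2), Hoxa5 untreated 0.14 on probe sets without an x or s suffix, and Hoxa3 after G-CSF −0.094 on the mean of its probe sets. Of the 60 estimates of G-CSF effects and of their difference, 24 changed sign under at least 1 alternative, none of them called. Between the sorts, Hoxa9, Hoxb4, Hoxb5, Hoxb6, Hoxc5, Hoxc8, Hoxc9, Hoxc10, Hoxd8 and Hoxd9 kept their call in both conditions under every alternative run. Calls of Hoxa10, Hoxb2, Hoxb3, Hoxc4 and Hoxc6 untreated, and of Hoxa2, Hoxa7, Hoxa11 and Hoxc6 after G-CSF, were lost under at least 1. Leaving out 1 array at a time gave 12 to 15 called members untreated and 14 to 16 after G-CSF, 0 to 2 for G-CSF in the CD31+ sort, and 0 for G-CSF in the GFP+ sort and for the difference of the effects. Members above background ranged from 16 to 17 (untreated GFP+), 15 to 16 (GFP+ after G-CSF) and 14 to 15 (either CD31+ group).

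For G-CSF in the CD31+ sort, 1 member (Hoxc5) was called with a pseudocount of 1, with no trend, with only the arrays compared and with the replicate block, and 2 (Hoxc5 and Hoxc10) without untreated replicate 2. With the 99th percentile of the receptors as background, 8 members in place of 14 were above it in the untreated CD31+ sort. On untreated CD31+ replicate 2 that percentile was 292.8, against 118.3 to 165.2 on the other untreated CD31+ arrays. Hoxa2 (195.8), Hoxa3 (250.2), Hoxa10 (137.6), Hoxc4 (110.7), Hoxc10 (97.6) and Hoxd9 (284) read below it on that array. Across the sorts, same-numbered arrays of a condition gave r from −0.01 to 0.27. Arrays of unlike number were not compared across the sorts, so whether the numbers pair them is not known. A block on the numbers gave 16 called members in each condition (9 higher, 7 lower). That block called Hoxa11 untreated (adjusted p = 0.0176) and lost Hoxa7 after G-CSF (adjusted p = 0.0866). No other Hox call changed with the block within a sort. Dim probe sets near background limit what can be said of the 13 untested members.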
